A study of Mus musculus with 2 samples.

Results

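The secretory pathway genes of the mouse one-cell embryo were examined in 2 RNA-seq libraries, 1 of the second polar body (PB2) and 1 of the zygote from which PB2 had been detached. The genes were chosen by symbol alone: subunits and regulators whose names begin with Sec and a number, Srp, Ssr, Cop with a subunit letter, Arf, Arfgap, Arfgef, Tmed, Stx, Vamp, Snap, Gosr, Trappc, Golg, Cog or Exoc. The choice gave 121 genes of the 11262 in the table. Both libraries came from untreated C57BL/6 embryos at the late one-cell stage, recovered from the oviduct and cultured, whose zona pellucida was dissolved in acid and whose PB2s were then shaken off in trypsin by pipetting. Material of many embryos was pooled, and its polyadenylated RNA was turned into full-length cDNA and amplified before sequencing, so neither library stands for a single embryo. With 1 library of each kind there is no replicate spread, no test was run, and each difference given is a description of these 2 libraries.

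The secretory pathway carries newly made proteins from the endoplasmic reticulum (ER) through the Golgi to the cell surface. The signal recognition particle brings ribosomes to the ER, where the Sec61 channel passes the growing chain across the membrane. The COPII coat buds vesicles from the ER, the COPI coat returns material from the Golgi, tethers catch the vesicles and SNARE proteins fuse them with their target. In the egg the same route supplies the zona pellucida, growth factors and the cortical granules that are released at fertilization.

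Levels are given in TPM, a length-corrected share of the transcripts scaled to a fixed total per library. TPM holds no read numbers, so the depth behind a value is unknown and no counting interval is given. Values were deposited to 1 decimal, which makes ratios below a few TPM coarse. TPM are also shares, so whether PB2 holds less or more RNA in all cannot be read from them, and fewer transcripts per cell and a smaller share cannot be told apart. The libraries were compared by the log2 ratio, log2((PB2 TPM + 1)/(zygote TPM + 1)), in which the added 1 understates the difference of low genes, and a gene counted as higher in a library when it was at least 2-fold higher there on that scale. Marker lists showed oocyte transcripts in both libraries, where 10 of 10 oocyte markers had at least 1 TPM and summed to 24733 TPM in the zygote against 29497 TPM in PB2. The 4 cumulus and granulosa cell markers found in the table of 14 listed summed to 81.4 TPM in the zygote against 83.4 TPM in PB2, nearly all from Cyp19a1, and the 3 sperm markers of 8 summed to 30.3 and 40.5 TPM. Of 8 transcripts of zygotic genome activation, 3 were in the table and summed to 11 TPM in the zygote against 3.7 TPM in PB2. The part of these transcripts' sources in the results was not tested.

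Most of the 121 genes reached 1 TPM in both libraries, which sets them little apart, as 10645 of the 11262 genes of the table reached it in at least 1. Pathway genes absent from the table, such as Cog2 and Exoc7, are not among the 121. Of the 121 genes, 115 had at least 1 TPM in the zygote, 116 in PB2 and 113 in both, and 3 genes, Tmed8, Exoc6b and Vamp1, stayed under 1 TPM in both and were not compared. The median was 15.1 TPM for the zygote and 19.0 TPM for PB2, where the whole table had medians of 8.70 and 11.1 TPM. Together the genes made up 0.763% of the fixed TPM total in the zygote library and 0.745% in the PB2 library. The genes of the table cover only 92.7% and 89.8% of those totals, so the order of the 2 shares is not read as a difference. The PB2/zygote ratio of the summed levels was 0.976, against 0.969 over all genes. Levels followed a similar order in both libraries, with a Spearman's rho of 0.92 across the 121 genes, which are not independent replicates. The most abundant of the 121 was Srp14 in the zygote, at 977.0 TPM, and Arf1 in PB2, at 1422 TPM.

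Of the 118 genes compared, 21 were higher in PB2, which is 17.8%, against 18.9% of all 10645 genes compared. In the zygote 10 genes were higher, 8.47% against 8.09% of all genes. The shares in both directions thus lay near those of the whole table, and the median log2 ratio was 0.15 against 0.21 over all genes. Since the ratios of the whole table are shifted towards PB2 by that median, the counts were also taken relative to it. After this centring PB2 was higher in 10 secretory genes and the zygote in 13, against 13% and 12.1% of all genes. The 10 were Tmed9, Trappc9, Arf5, Arf6, Trappc3, Tmed3, Cog3, Sec31a, Tmed7 and Trappc10. Without centring, no secretory gene was 4-fold apart in either direction on the log2 scale used here, and with it Exoc6 alone was, at -2.02.

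**Figure D1:**
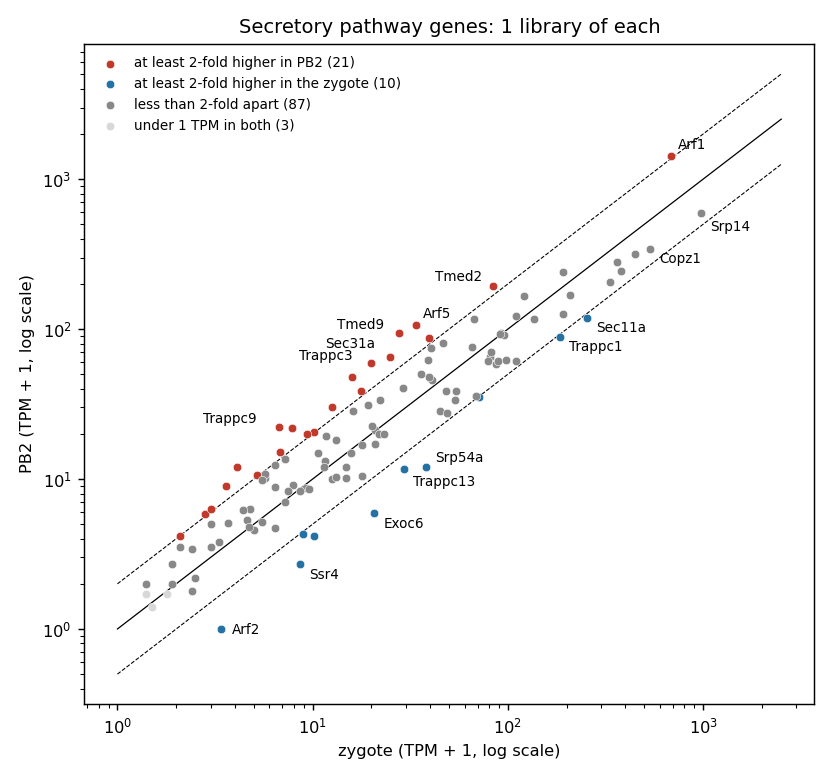
Level of each of the 121 secretory pathway genes in the zygote library (x axis) and the PB2 library (y axis), as TPM + 1 on log scales, with 1 point per gene, a solid line of equal levels and dashed lines at 2-fold. The points past the dashed lines are 21 on the PB2 side and 10 on the zygote side, and Arf1 is the highest gene in PB2.

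The counts differed from step to step of the pathway. By the medians of the genes chosen by symbol, the COPII coat, the p24 cargo receptors and the Arf GTPases lay towards PB2. The ER entry genes and the COPI coat lay below 0. Single genes of the p24, Arf, ER entry and COPI sets went the other way, and the tethers were split within each complex. The groups of genes follow the known subunits, while the finer sets within them were drawn up after the values had been seen, so none of these patterns is independent evidence.

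**Figure D2:**
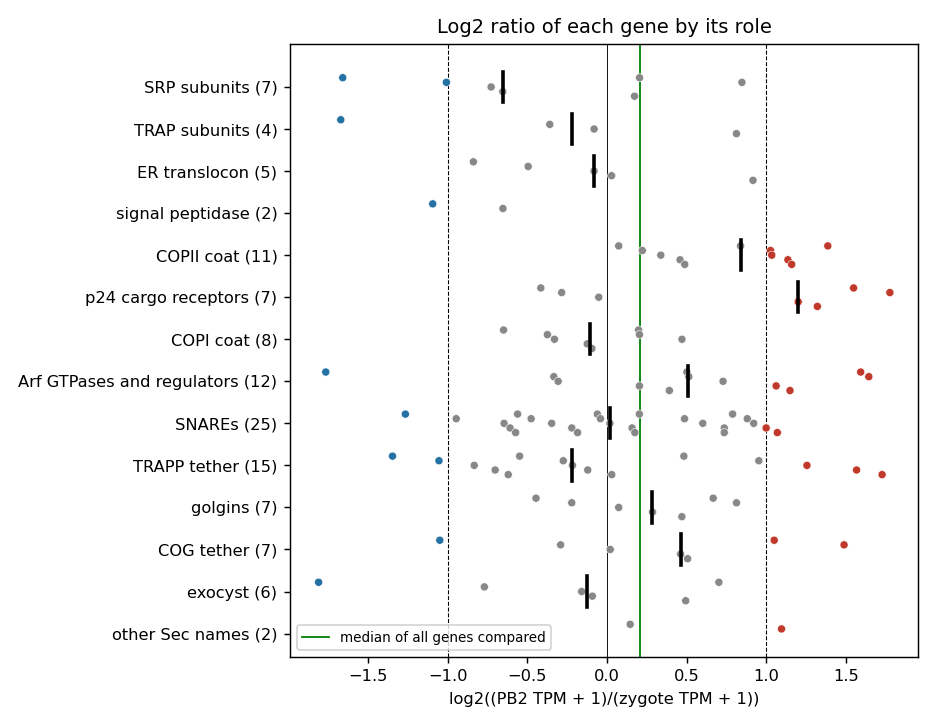
Log2 ratio of each of the 118 genes compared, by role, with 1 point per gene (red, higher in PB2; blue, higher in the zygote; grey, less than 2-fold apart), black bars for the median of groups of at least 3 genes, dashed lines at 2-fold and a green line at 0.21, the median of all genes. The median is 0.84 for the COPII coat and 1.20 for the p24 receptors, and -0.65 for the SRP subunits, and with no filter on low values the p24 median is 0.58.

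Promoter windows were read to see which sequence features the genes share, as background to their regulation rather than to the difference between the libraries. RefSeq windows of GRCm38.p6, from 250 bases before to 50 bases after a gene's start, were found for 103 of the 121 genes, 123 windows in all. The letters TGACGTG, the core of the element bound by XBP1 in the unfolded protein response, stood on either strand in 10 of the 123 windows, or 8.13%, against 661 of all 32851 windows, or 2.01%. All 32851 windows belong to 27025 genes and were not limited to the 11262 genes of the table. A match is a description and not a binding site. The same letters overlap the CCACG part of the ER stress response element where a further G follows them. That longer element, CCAAT and CCACG set 9 bases apart, was in 0 of the 123 windows and in 39 of all windows, which says only that these letters are not in these windows. CCAAT alone was in 40.7% of the windows against 37.4% of all, and the TATA box TATAAA was in 6.50% against 13.6%. The 10 windows belonged to Arf1, whose pair of overlapping windows hold the same match, Arfgef3, Copb1, Copb2, Golga1, Sec16b, Sec23a, Sec24d and Stx5a. Of these 9 genes, PB2 was higher in Arf1 and Sec16b, and the zygote was higher in none. With 18.9% and 8.09% of all genes higher in PB2 and in the zygote, counts this small say nothing about the genes with a match. Shown are the 250 bases before the start of 3 coat genes whose match lies there, 5′ to 3′ on the gene's strand with the match in capitals. They are those of Sec16b (chr1:157506546-157506795, plus strand) and Sec24d (chr3:123267246-123267495, plus strand) of the COPII coat and of Copb1 (chr7:114254681-114254930, minus strand) of the COPI coat, where the match reads on the opposite strand.
Sec16b: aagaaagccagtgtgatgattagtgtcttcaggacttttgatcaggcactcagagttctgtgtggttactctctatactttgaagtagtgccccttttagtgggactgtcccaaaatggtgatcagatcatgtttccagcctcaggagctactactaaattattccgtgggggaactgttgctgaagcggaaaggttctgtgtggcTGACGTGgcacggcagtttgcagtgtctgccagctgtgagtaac
Sec24d: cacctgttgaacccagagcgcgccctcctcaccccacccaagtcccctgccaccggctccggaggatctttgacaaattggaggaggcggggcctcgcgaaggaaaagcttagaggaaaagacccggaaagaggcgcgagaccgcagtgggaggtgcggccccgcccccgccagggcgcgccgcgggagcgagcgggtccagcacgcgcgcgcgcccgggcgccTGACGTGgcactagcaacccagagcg
Copb1: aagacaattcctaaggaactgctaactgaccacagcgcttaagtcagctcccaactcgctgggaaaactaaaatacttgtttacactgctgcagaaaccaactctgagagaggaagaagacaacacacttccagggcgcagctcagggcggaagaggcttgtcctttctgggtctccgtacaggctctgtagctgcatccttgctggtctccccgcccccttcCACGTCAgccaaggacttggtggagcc
The match begins at base 207 in Sec16b, 225 in Sec24d and 224 in Copb1, counted from the first base shown. In Arf1 the single match lies before the start in one window and after the start in the other, at bases 167 and 272 of the 300.

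Entry into the ER is served by the signal recognition particle, the Sec61 channel, the translocon-associated TRAP complex and the signal peptidase. None of the 18 genes of these complexes was higher in PB2, against 18.9% of all genes, and 4, or 22.2%, were higher in the zygote, against 8.09%. A log2 ratio below 0 was found in 12 of the 18, against 4262 of all 10645 genes, or in 15 relative to the median of all genes. The other 6 lay above 0, up to 0.92 in Sec61a1. The summed level of the 18 genes was 2361 TPM in the zygote against 1617 TPM in PB2. Much of this sum was Srp14, which with Srp9 forms the part of the particle that slows translation. It had 977.0 TPM in the zygote against 589.8 TPM in PB2 (log2 ratio -0.73), and Srp9 had 44.0 and 27.6 TPM. Both therefore lay towards the zygote without reaching 2-fold.

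Srp54 is the subunit that recognises the signal peptide, and the mouse genome carries near-identical copies of its gene. Srp54a had 36.9 TPM in the zygote against 11 TPM in PB2 (log2 ratio -1.66.) Srp54c had 70.4 and 34.5 TPM, with a log2 ratio of -1.01. Both copies were thus higher in the zygote, though reads shared between copies make the value of either uncertain. Another 3 SRP genes differed from both copies. Srp68 had 4.5 TPM in the zygote against 8.9 TPM in PB2, Srp72 had 39.7 and 44.9 TPM, and Srp19, which helps the particle assemble, had 64.5 and 74.5 TPM. The 7 SRP genes had a median log2 ratio of -0.65, and Srp68, Srp72 and Srp19 lay between 0.17 and 0.85.

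At the channel itself, Sec61b was the most abundant subunit, with 447.6 TPM in the zygote against 317.4 TPM in PB2. Sec61g, the other small subunit, had 109.0 and 60.5 TPM, with a log2 ratio of -0.84. Sec61a1, which forms the pore, was far less abundant and lay the opposite way, with 6.2 TPM in the zygote against 12.6 TPM in PB2 (log2 ratio 0.92.) None of the 3 passed 2-fold on this scale. Sec62 and Sec63, which assist the channel, hardly differed, with 91.5 and 93.4 TPM for Sec62 and 4.5 and 4.2 TPM for Sec63.

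The catalytic subunits of the signal peptidase, which cuts off the signal peptide, were both lower in PB2. Sec11a had 253.0 TPM in the zygote against 118.0 TPM in PB2 (log2 ratio -1.09) that passed 2-fold. Its paralog Sec11c had 52.3 and 32.9 TPM, with a log2 ratio of -0.65 that did not. Among the TRAP subunits the spread was wide. Ssr4 had 7.6 TPM in the zygote against 1.7 TPM in PB2, with rounding allowing a zygote/PB2 ratio between 4.31 and 4.64, while Ssr2 had 65.8 and 116.4 TPM. Ssr1 had 8.2 and 7.7 TPM and Ssr3 had 78.0 and 60.6 TPM, so only Ssr4 of the 4 TRAP genes was 2-fold apart.

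The COPII genes chosen by symbol leaned the other way. The log2 ratio was above 0 in 11 of the 11 COPII genes, against 6298 of all 10645 genes, or in 10 relative to the median of all genes. It lay between 0.07 and 1.39 with a median of 0.84. Of the 11, 5 were higher in PB2, or 45.5% against 18.9% of all genes. The summed level of the 11 was 306.5 TPM in the zygote against 465.2 TPM in PB2. Relative to the median of all genes, Sec31a was still past 2-fold and the other 4 of those 5 were not. None was once the GC trend was taken out, although the median of the 11 was still 0.68. The lean was not shared by 6 further COPII genes, read under other names. None of these 6 was higher in PB2, and 1 was higher in the zygote, or 16.7% against 8.09% of all genes. Their median log2 ratio was -0.18, and their summed level was 519.1 TPM in the zygote against 458.4 TPM in PB2.

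Sec31a, which builds the outer cage, had 24 TPM in the zygote against 64.4 TPM in PB2 (log2 ratio 1.39.) The gene occupies chr5:100361649-100416234 (GRCm38, minus strand). Its partner Sec13, which also serves the nuclear pore, was the most abundant COPII gene, with 189.6 TPM in the zygote against 240.0 TPM in PB2, and was not 2-fold apart. Sec16a and Sec16b, scaffolds of the ER exit sites, were both higher in PB2. Sec16a had 16.6 and 37.7 TPM, and Sec16b had 4.2 and 9.6 TPM.

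The inner coat gave a graded picture among paralogs. The Sec24 proteins pick the cargo, and Sec24c had 5.8 TPM in the zygote against 14.2 TPM in PB2, while Sec24b had 9.1 and 19.7 TPM. Their log2 ratios were 1.16 and 1.04. Sec24d had 4.7 and 9.2 TPM and Sec24a had 5.4 and 7.8 TPM, short of 2-fold at 0.84 and 0.46. Sec24b held the largest share of the summed Sec24 level in both libraries, 36.4% in the zygote and 38.7% in PB2, and the share of Sec24a was 21.6% and 15.3%. Sec23a and Sec23b, which make the coat release Sar1, differed less. Sec23a had 34.7 TPM in the zygote against 49.1 TPM in PB2 and supplied 94.6% and 95.2% of the Sec23 level, with 2.0 and 2.5 TPM for Sec23b.

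The p24 proteins, encoded by the Tmed genes, ride in COPI and COPII vesicles and help load cargo such as GPI-anchored proteins. Of the 7 compared, 4 were higher in PB2, or 57.1% against 18.9% of all genes, and none in the zygote, against 8.09%. Tmed9 had 26.6 TPM in the zygote against 93.6 TPM in PB2 (log2 ratio 1.78), the largest among the 118 secretory genes with the added 1, and 437 genes of the whole table had a larger one. With a pseudocount of 0.1 TPM Trappc9 had the larger ratio, and with the GC trend removed Cog3. Tmed2 had 82.8 and 191.7 TPM, with a log2 ratio of 1.20. The PB2 value was more than 2-fold the zygote value in both.

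Tmed3 had 3.1 TPM in the zygote against 11 TPM in PB2, and Tmed7 had 2.6 and 8.0 TPM, with log2 ratios of 1.55 and 1.32. Rounding allows a PB2/zygote ratio between 3.48 and 3.62 for Tmed3 and between 3.0 and 3.16 for Tmed7. The other members lay on the opposite side. Tmed10, the most abundant p24 gene of the zygote, had 206.0 TPM there and 169.0 TPM in PB2, Tmed5 had 7.6 and 7.3 TPM, and Tmed4 had 1.4 and 0.8 TPM. The makeup of the family differed accordingly, with Tmed10 at 62.3% of the summed Tmed level in the zygote and 35.1% in PB2, Tmed2 at 25% and 39.8%, and Tmed9 at 8.05% and 19.4%. With the GC trend removed, Tmed9 and Tmed2 were still past 2-fold, at 1.43 and 1.21, while Tmed7 and Tmed3 were at 0.93 and 0.88.

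**Figure D3:**
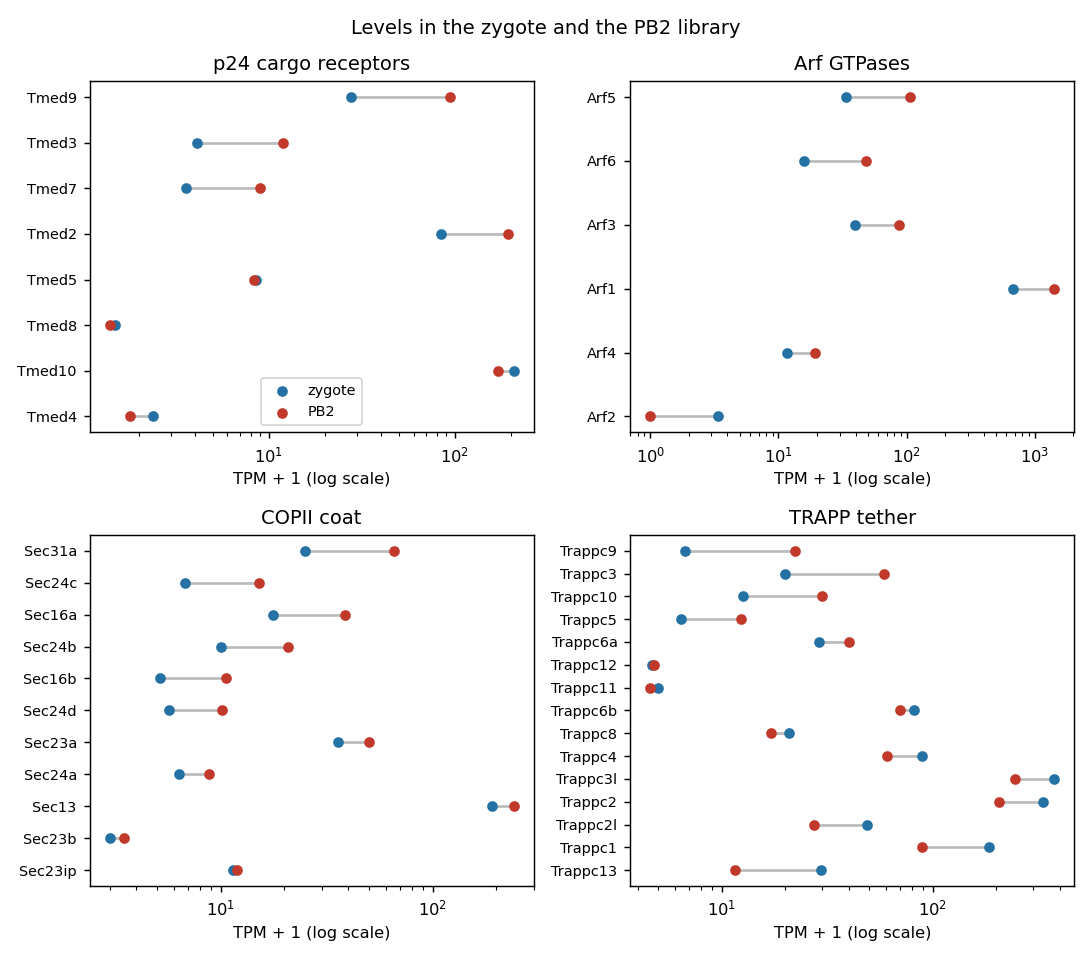
Levels of the p24, Arf GTPase, COPII and TRAPP genes as TPM + 1 on a log scale (x axis), with a blue point for the zygote library, a red point for the PB2 library and a line joining them, genes sorted by log2 ratio. Of the 6 Arf GTPases, 4 were higher in PB2 (66.7% against 18.9% of all genes) and Arf2 was listed at 0 there. The TRAPP genes run from Trappc13, lower in PB2, to Trappc9, higher in PB2.

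The COPI coat, which forms on Golgi membranes, showed no such lean. None of its 8 genes was 2-fold apart, against 18.9% of all genes higher in PB2 and 8.09% higher in the zygote. With so few genes such a count says little. The log2 ratios lay between -0.65 and 0.47. The levels within the coat were very unequal in both libraries. Copz1 had 535.4 TPM in the zygote against 341.0 TPM in PB2 and Copb1 had 361.8 and 279.0 TPM, while Copg1, a partner of both in the adaptor part of the coat, had 3.6 and 4.3 TPM. Its paralog Copg2 had 10.5 and 12.2 TPM and held 74.5% and 73.9% of the Copg level, so the balance of the paralogs hardly moved. Of the cage subunits, Copb2 had 80.3 and 63.7 TPM, Cope had 14.8 and 13.8 TPM and Copa had 12.2 and 17.3 TPM.

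The Arf GTPases recruit COPI and other coats when loaded with GTP. Their summed level was 779.3 TPM in the zygote against 1678 TPM in PB2, and Arf1 made up 87.3% and 84.7% of it. Arf1 had 680.2 TPM in the zygote, where it ranked 198 in the table, and 1422 TPM in PB2, where it ranked 71, a log2 ratio of 1.06. The gene occupies chr11:59211412-59228270 (GRCm38, minus strand). Arf3, a close relative of Arf1, had 38.3 and 86.2 TPM.

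The larger ratios were in Arf5 and Arf6. Arf5 had 32.8 TPM in the zygote against 104.7 TPM in PB2 (log2 ratio 1.64), and Arf6, which acts at the plasma membrane, had 14.9 and 47.0 TPM, with a log2 ratio of 1.59. Arf4 had 10.7 and 18.4 TPM and did not reach 2-fold. Arf2 alone was higher in the zygote, with 2.4 TPM there, and it was listed at 0 in PB2, so no fold is given. Coding sequences of the Arf genes are alike, and how reads that fit several of them were counted was not given in the sources used here. The transcripts of Arf5 and Arf6 were rich in GC, 59.9% and 60.0%, and with the GC trend removed their log2 ratios were 0.73 and 0.67, under 2-fold, as were those of Arf1 and Arf3 at 0.59 and 0.67.

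Of the enzymes that load and unload the Arf proteins, none of the 3 Arfgap and 3 Arfgef genes was 2-fold apart, while the loading enzyme Gbf1, described with the other pathway genes, was higher in PB2. Arfgef1, an activator at the trans-Golgi, had 47.1 TPM in the zygote against 37.9 TPM in PB2, and its relative Arfgef2 had 6.9 and 8.1 TPM. Arfgap3, which returns Arf1 to its GDP form, had 11.6 and 9.0 TPM. The summed level of the 6 regulators was 71.2 TPM in the zygote against 63.7 TPM in PB2.

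SNAREs sit on vesicles and target membranes and zip together to fuse them. The genes of this group were taken by symbol, which also took in Sec22a and Sec22c as relatives of the SNARE Sec22b, and whether each acts as a SNARE was not examined. Of the 25 compared, PB2 was higher in 2 and the zygote in 1, which is 8.0% and 4.0% against 18.9% and 8.09% of all genes, and the median log2 ratio was 0.02. Both of those higher in PB2 were rare. Stx11 had 1.1 TPM in the zygote against 3.2 TPM in PB2, exactly at 2-fold with the added 1, and Sec22c had 2.0 and 5.3 TPM. Stx18, a syntaxin of the ER that receives vesicles returning from the Golgi, was higher in the zygote, with 9.1 and 3.2 TPM and a log2 ratio of -1.27.

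The 13 syntaxins, Stx11 and Stx18 included, had a median log2 ratio of 0.49, and the 4 Vamps compared had one of -0.57. The abundant syntaxins were mixed, and none of them passed 2-fold. Stx7, of late endosomes, had 39.6 TPM in the zygote against 73.8 TPM in PB2, and Stx5a, of the Golgi, had 45.4 and 79.2 TPM. Stx12 had 108.5 and 121.2 TPM, while Stx17, which serves autophagosomes, had 53.1 and 37.9 TPM. On the vesicle side, Vamp7 had 96.8 and 61.5 TPM, Vamp8 had 85.9 and 57.4 TPM and Vamp3 had 90.6 and 91.8 TPM. In the zygote these 3 were at near levels, and in PB2 Vamp3 was the highest of them. Snap23, which pairs with syntaxins at the plasma membrane, had 67.8 TPM in the zygote against 34.7 TPM in PB2 (log2 ratio -0.95), and its share of the Snap level was 62.1% and 46.0%. Sec22b, the SNARE of ER to Golgi traffic, had 94.3 and 90.4 TPM, and the related Sec22a had 189.7 and 124.1 TPM, the highest level in this group.

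TRAPP complexes tether vesicles at the Golgi and activate Rab GTPases, and a shared core joins with different subunits to make TRAPPII and TRAPPIII. Of the 15 TRAPP genes, PB2 was higher in 3 and the zygote in 2, against 2009 and 861 of all 10645 genes. Within this group the sets were drawn up after the values had been seen. The 2 subunits particular to TRAPPII were both higher in PB2. Trappc9 had 5.7 TPM in the zygote against 21.2 TPM in PB2 (log2 ratio 1.73), and Trappc10 had 11.6 and 29.1 TPM, with a log2 ratio of 1.26. With the GC trend removed, Trappc9 was at 1.09 and Trappc10 at 0.83, the latter under 2-fold. None of the 4 subunits particular to TRAPPIII was higher in PB2, with log2 ratios between -1.35 and 0.03. Trappc13 had 28.5 TPM in the zygote against 10.6 TPM in PB2 and was the only one of them 2-fold apart, while Trappc8 had 19.8 and 16.2 TPM.

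In the core, 6 of 9 genes had a log2 ratio below 0, against 4262 of all 10645 genes. Trappc1 had 184.1 TPM in the zygote against 88.1 TPM in PB2 (log2 ratio -1.05), Trappc2 had 333.6 and 204.7 TPM and Trappc4 had 87.9 and 59.8 TPM. The pair Trappc3 and Trappc3l parted. Trappc3 had 18.9 TPM in the zygote against 58.0 TPM in PB2 (log2 ratio 1.57), while its paralog Trappc3l, by far the more abundant, had 376.4 and 244.6 TPM, with a log2 ratio of -0.62. Trappc3l therefore made up 95.2% of their summed level in the zygote and 80.8% in PB2. A smaller shift of the same kind was seen in Trappc6b, at 74.3% and 63.8% of the level it shares with Trappc6a.

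The COG complex tethers vesicles that move within the Golgi and is built of 2 lobes. Of its 7 genes compared, PB2 was higher in 2 and the zygote in 1. That is 28.6% and 14.3%, against 18.9% and 8.09% of all genes. Cog3 had 6.8 TPM in the zygote against 20.9 TPM in PB2 (log2 ratio 1.49), and Cog1 had 1.8 and 4.8 TPM, with a log2 ratio of 1.05. Both belong to lobe A, whose remaining measured subunit, Cog4, had 19.8 and 20.1 TPM. In lobe B, Cog6 was higher in the zygote, with 7.9 and 3.3 TPM and a log2 ratio of -1.05, and Cog5 had 13.8 and 11.1 TPM. Cog7 and Cog8 had log2 ratios of 0.51 and 0.46 at levels under 5 TPM. The log2 ratio of Cog1 was 0.84 with centring and 0.36 with the GC trend removed, both under 2-fold. Cog2 was not analysed here.

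At the cell surface, the exocyst tethers secretory vesicles before fusion. None of its 6 subunits compared was higher in PB2, against 18.9% of all genes. Exoc6 had 19.7 TPM in the zygote against 4.9 TPM in PB2 (log2 ratio -1.81), the lowest of the 118 secretory genes with the added 1. With a pseudocount of 0.1 TPM Arf2 and Ssr4 were lower. Exoc2 had 16.9 and 9.5 TPM, and Exoc1 lay the other way with 18.1 and 30.1 TPM, neither 2-fold apart. Exoc3 and Exoc4 differed by less, with 16.9 and 15.8 TPM and 8.6 and 7.6 TPM. Exoc7 and Exoc8 were not analysed here.

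The golgins are long coiled-coil proteins that capture vesicles at the Golgi. None of the 7 was 2-fold apart, against 18.9% and 8.09% of all genes higher in PB2 and in the zygote. Golga5 had 134.3 TPM in the zygote against 115.1 TPM in PB2, Golga7, a partner of a palmitoyl transferase rather than a tether, had 119.5 and 166.0 TPM, and Golga2, of the cis-Golgi, had 15.1 and 27.3 TPM. Their median log2 ratio of 0.29 lay near the 0.21 of all genes. By its name the choice also took in Sec14l1 and Sec14l3, of a family of lipid-binding proteins. Sec14l3 had 8.4 TPM in the zygote against 19.1 TPM in PB2 and was higher in PB2.

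Genes of the same pathway under other names were read from a list of 78 symbols, of which 76 were in the table and 75 were compared. PB2 was higher in 8 of them and the zygote in 9, which is 10.7% and 12.0% against 18.9% and 8.09% of all genes, and their median log2 ratio was 0.13. Surf4, a cargo receptor of the ER and the most abundant gene of the list in PB2, had 458.6 TPM in the zygote against 1114 TPM in PB2. Golph3, which holds enzymes in the Golgi, had 130.2 and 370.0 TPM, and Nsf, the ATPase that takes spent SNARE complexes apart, had 53.2 and 155.2 TPM. Their log2 ratios were 1.28, 1.5 and 1.53.

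Further genes of the list were higher in PB2. Gbf1, the activator of Arf1 at the cis-Golgi, had 23.6 TPM in the zygote against 54.5 TPM in PB2. Stxbp2, which binds syntaxins, had 1.9 and 10.5 TPM, and Yipf3, a Golgi membrane protein, had 9.8 and 22.2 TPM. Relatives of the last 2 kinds went the other way. Stxbp3, named as a syntaxin binder, had 6.0 TPM in the zygote against 1.2 TPM in PB2, and the Golgi gene Yif1a had 4.8 and 0.1 TPM. Also higher in the zygote were some genes of traffic between ER and Golgi, and 1 of the 7 ER entry genes of the list. That is 14.3% of the 7, against 8.09% of all genes. The 7 had a median log2 ratio of 0.04, and 4 of them lay above 0. Spcs1, another subunit of the signal peptidase, had 128.2 TPM in the zygote against 41.2 TPM in PB2, Bcap31, an ER protein that escorts membrane cargo, had 537.8 and 178.2 TPM, and its relative Bcap29 had 60.5 and 28.9 TPM. The SNARE Bet1 had the largest ratio of those above 10 TPM, with 105.4 TPM in the zygote against 21.6 TPM in PB2 (log2 ratio -2.24.) The tether Uso1 had 74.2 and 33.3 TPM, the ER exit site protein Tfg had 20.5 and 8.2 TPM and the SNARE Bnip1 had 21.1 and 9.7 TPM. Arcn1, the COPI subunit missing from the names above, had 79.7 and 87.1 TPM, and Sar1a and Sar1b, the GTPases that start the COPII coat, had 34.9 and 19.7 TPM and 350.0 and 274.2 TPM.

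The log2 ratio moved with the GC content of the transcripts, in the secretory genes as in the table. Spearman's rho was 0.44 over the 117 secretory genes with a transcript and 0.44 over 10606 genes, with no p since the genes share 2 libraries. When all genes were cut into 3 equal bins of GC content, 0 of the 39 secretory genes in the lowest bin, 10 of 46 in the middle bin and 11 of 32 in the highest bin were higher in PB2. Over all genes the shares were 4.89%, 14.2% and 37.6%. Median GC content was 52.3% in the secretory genes higher in PB2, 47.5% in those higher in the zygote and 48.1% in the rest. With the trend of the whole table removed, PB2 was higher in 6 genes and the zygote in 11, against 9.53% and 10.5% of all genes. The 6 were Cog3, Tmed9, Tmed2, Trappc9, Trappc3 and Stx7, between 1.05 and 1.44. Among the 11 were 9 of the 10 genes named as higher in the zygote, all but Srp54c, with Ssr4 lowest at -2.32. How far GC content bears on these differences through amplification or sequencing was not tested.

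**Figure D4:**
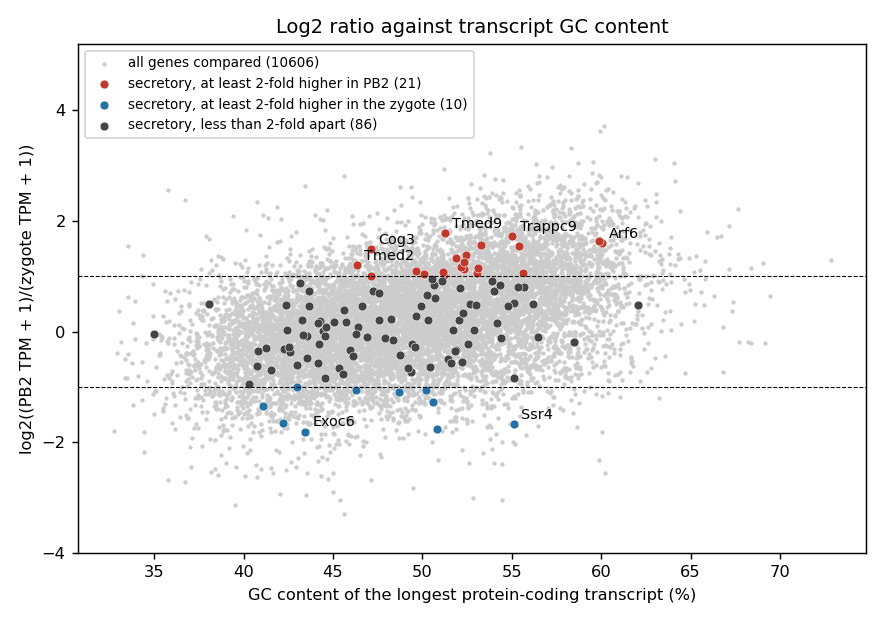
Log2 ratio (y axis) against the GC content of the longest protein-coding transcript in percent (x axis), for 10606 genes in light grey and 117 secretory pathway genes in colour, with dashed lines at 2-fold. The red points, higher in PB2, lie at 46.3% GC or more, and Tmed9, Tmed2 and Cog3 stand above the grey cloud's centre at their GC content.

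Transcript length and the ends of the transcripts were read in the same way. Spearman's rho between log2 ratio and transcript length was 0.18 over the 117 secretory genes and 0.17 over all genes. The cytoplasmic polyadenylation element TTTTAT, through which stored egg transcripts are given longer tails, was searched on the transcript strand in the last 100 bases of the longest transcript. It was present in 19 of 117 secretory transcripts, or 16.2%, against 15.2% of all. Of the secretory genes, 1 of the 21 higher in PB2 and 1 of the 10 higher in the zygote had it. Over all genes the shares were 15.2% of those higher in PB2 and 12.9% of those higher in the zygote. Counts this small say nothing about a difference. The poly(A) signal AATAAA was present in 70.1% of the secretory transcripts and in 66.2% of all. These are counts of letters in annotated transcripts, whose ends in the egg may differ.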

How the data were processed

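PB2 and the zygote were compared with 1 RNA-seq library each. The submitters' processing notes name CASAVA, HISAT2 2.0.4, HTSeq 0.6.1p1 and DESeq2 1.18.1, and the builds GRCm38 and OryCun2.0. OryCun2.0 is a rabbit genome and is the one the study's methods name for alignment, yet the table lists mouse Ensembl genes. What the authors deposited are TPM values to 1 decimal, and how these were computed from counts is not given in the sources used here. The column named for PB was read as PB2 and the column named for the 1-cell library as the zygote, although neither name repeats the sample's title, and 0 columns were left over.

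The log2 ratio with a pseudocount of 1 TPM was computed over genes reaching 1 TPM in PB2 or zygote, and those 2-fold or more apart were counted. The depth is unknown, 1 library per condition allows no test, and no p-value is given. Transcript length, GC content and 3′ ends were taken from each longest protein-coding transcript of GENCODE M21 (GRCm38), matched by identifier for 120 of the 121 genes, and promoters came from RefSeq. Trends on GC content or log10 length were removed by loess with a span of 0.3. The members, lists, motifs and alternatives were chosen with earlier results of these data known. Named with values are members at least 2-fold apart, the member of each role highest in mean TPM, and paralogs that part. Also named are genes of the pathway list 2-fold apart with at least 10 TPM, and other genes singled out after their values were seen. The values of 1 gene of the pathway list are not reported here. Alternatives were pseudocounts of 0.1 and 0.01, no filter or one at 5 TPM, thresholds of 1.5-fold and 4-fold, scaling, rescaling, centring and removal of trends. A median was taken as unchanged within its 95% order-statistic interval, or within the range for fewer than 6 genes, a count within 1.5 times and a single log2 ratio within 0.5. The functions were tested on simulated data. Computations ran in Python 3.11.15 with statsmodels 0.14.6 for loess, pandas 2.3.3, numpy 2.4.6 and scipy 1.17.1, and plots were made in matplotlib 3.10.9.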

Additional observations from a re-analysis of the deposited data

How the results depend on the processing

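No paired analysis was possible because there is 1 library per condition, and none could be left out. Of the recomputed counts and medians, 139 remained inside their limits and 9 did not. For groups of 8 or fewer genes the limits are the whole range of the group, so that count cannot show that their medians are stable. The p24 and COG medians given below counted as inside. No log2 ratio past 2-fold changed sign. At a threshold of 1.5-fold PB2 was higher in 36 secretory genes and the zygote in 22, against 34.2% and 18.1% of all genes, and at 4-fold the counts were 0 and 0 against 2.48% and 0.695%. The count in PB2 went from 21 to 10 with centring, to 6 with the GC trend removed and to 9 with the length trend removed (11.97% of all genes), and the cause was not tested. With the length trend removed the median of the members was -0.15 and that of the other pathway genes -0.21, and with centring these were -0.06 and -0.08. The SNARE median of 0.02 was -0.19 with centring, -0.22 with the length trend removed, -0.06 with the zygote scaled by 1.06 and -0.05 with the filter at 5 TPM. The COG median of 0.46 was -0.14 with that filter and -0.01 with the GC trend removed, which also turned the translocon median from -0.08 to 0.08 and that of the other pathway genes to -0.02. Pseudocounts of 0.1 and 0.01 each gave 26 genes in PB2 and 10 in the zygote, against 24.6% and 24.7% of all genes in PB2 and 10.3% and 10.4% in the zygote. Arf2, listed at 0 in PB2, went with them to -4.64 and -7.91. With no filter the p24 median was 0.58 in place of 1.20, since Tmed8 then entered. Of 56 single genes, Cog4 changed sign with scaling, rescaling, centring and removal of either trend, Sec13 with the GC trend removed and Sec61b with the length trend removed. With the depth unknown, the counting error of genes at a few TPM cannot be given.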
